A study of Homo sapiens with 12 samples.

Results

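The 69 genes described here are the replication-dependent core histone genes, chosen by name from the deposited lists: every gene symbol of the HIST1 to HIST4 clusters that encodes an H2A, H2B, H3 or H4 histone, without the linker histone H1 genes and without 9 names marked as pseudogenes. They are 69 of the 41371 gene names in the PAR-CLIP and transcript abundance lists, and 60 of them are among the 6036 genes that carried a called eIF3 crosslinking cluster in at least 1 PAR-CLIP library. By class, 15 of 17 H2A genes, 17 of 23 H2B genes, 14 of 14 H3 genes and 14 of 15 H4 genes were listed at least once. In the genome 49 of the genes lie on chromosome 6, 19 on chromosome 1 and 1, HIST4H4, on chromosome 12. The name rule keeps 5 members that GENCODE release 44 annotates as pseudogenes.

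Replication-dependent histone genes supply the histones that package newly copied DNA, and their mRNAs accumulate mainly during S phase. The mRNAs are short, carry no introns and end in a conserved stem-loop bound by SLBP in place of a poly(A) tail. H3 and H4 form the central tetramer of the nucleosome, and H2A and H2B join it as dimers. The genes stand in many near-identical copies, so that sequencing reads from one copy can match another.

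The cells were Jurkat, a human CD4+ T cell leukaemia line, either non-activated or activated for 5 hr with PMA and ionomycin, and both states had been given 50 μM 4-thiouridine before crosslinking. PAR-CLIP marks RNA in contact with a protein: the 4-thiouridine crosslinks under UV light and is then read as a T-to-C conversion. eIF3, the translation initiation factor with many subunits, was recovered with an antibody against EIF3B, and RNA was sequenced from 5 gel bands named after the crosslinked subunits, the bands EIF3A/C/B and EIF3B/C, then EIF3D/L, then EIF3F/E, and last EIF3G/E/F,, with 2 biological replicates of each band and state and therefore 20 libraries. A cancer line grown in culture is the only cell model, and p-values below measure only the spread between these replicates. In the abundance tables all 13 T cell markers examined reached a mean of 1 TPM (transcripts per 1000000) and summed to 125 TPM (activated) and 406 TPM (non-activated), whereas B cell markers summed to 0.580 and 4.85 TPM (CD79A alone reached the mean of 1), myeloid to 0.108 and 0.305, erythroid to 0.0178 and 0.163 with HBB at 0, and epithelial to 0.137 and 0.324 with KRT19 at 0.

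Depth differed widely between the libraries. Uniquely aligned reads ran from 83846 to 1163754, and the activated EIF3A/C/B libraries (1148037 and 1163754) were far deeper than the non-activated ones (84320 and 83846). In the EIF3D/L band the totals were close (200340 and 249762 against 187745 and 178444), but the share of mRNA among aligned reads was 49.2% and 49.3% for activated cells but 12.6% and 12.5% for non-activated cells. A gene appears in a library only if it has a called cluster, and the fewest reads of any listed gene were 7. A gene not listed was entered as 0, so a lower depth removes weak genes and weak sites from the lists.

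The start codon is the region on which the results below turn, so its sequence is shown for the genes that carry them. All 64 members with a coding transcript in the annotation have a single exon, with a median transcript of 486 bases and a median 5′-UTR of 36 bases (12 to 132). Each window below holds 30 bases, 12 before the start codon and 18 from it, read 5′ to 3′ from hg38 with GENCODE release 44 transcripts, with the start codon in capitals. HIST1H4A and HIST1H4H were listed in all 20 libraries, HIST2H4A and HIST1H4J stand for pairs of copies, HIST1H2AI is an H2A gene with a start codon site in nearly every library, and HIST1H2AC and HIST1H2AL are H2A genes without one in most.
HIST1H4A: tcttgggaagtcATGtctggacgtggtaag
HIST1H4H: agttgcttagtcATGtctggccgtggtaaa
HIST2H4A: gctccagcggtcATGtccggcagaggaaag
HIST1H4J: ctcttgctcgtcATGtctggccgcggcaaa
HIST1H2AI: aggccttttgccATGtctgggcgtggcaag
HIST1H2AJ: agaccttttgccATGtctgggcgtggtaag
HIST1H2AC: tgtctgattgcaATGtctggacgtggtaag
HIST1H2AL: cgtttcttcgtcATGtcgggacgcggcaag

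These windows lie at chr6:26021667-26021696 on the plus strand for HIST1H4A, chr6:26285482-26285511 on the minus strand for HIST1H4H, chr1:149832673-149832702 on the plus strand for HIST2H4A, chr6:27824113-27824142 on the plus strand for HIST1H4J, chr6:27808198-27808227 on the plus strand for HIST1H2AI, chr6:27814723-27814752 on the minus strand for HIST1H2AJ, chr6:26124221-26124250 on the plus strand for HIST1H2AC and chr6:27865343-27865372 on the plus strand for HIST1H2AL, and each spans the end of the 5′-UTR and the first codons of the single exon. The deposited lists count sites per annotated region of a gene, so a start codon site here is a cluster that the authors' annotation assigned to the start codon. HIST1H4A had one in all 20 libraries, HIST1H4H in 19 of 20, HIST2H4A in all 19 that listed it and HIST1H4J in 17 of 18. HIST1H2AI had one in 18 of 19 libraries and HIST1H2AJ, its near copy, in 4 of 12. HIST1H2AC had one in 5 of 19 libraries and HIST1H2AL in 0 of 10. Each site is counted under at most 1 region, however deep it is. In the first activated EIF3A/C/B library the only site of HIST1H2AC held 996 reads and was annotated to the stop codon. The only site of HIST1H4E there, with 489 reads, was too. Whether such sites also cover the start codon was not tested, so a missing start codon site is not a lack of crosslinks there. The window of HIST2H4B is identical to that of HIST2H4A, and the window of HIST1H4K to that of HIST1H4J, so the sites of these copies cannot be assigned from this stretch alone.

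**Figure D1:**
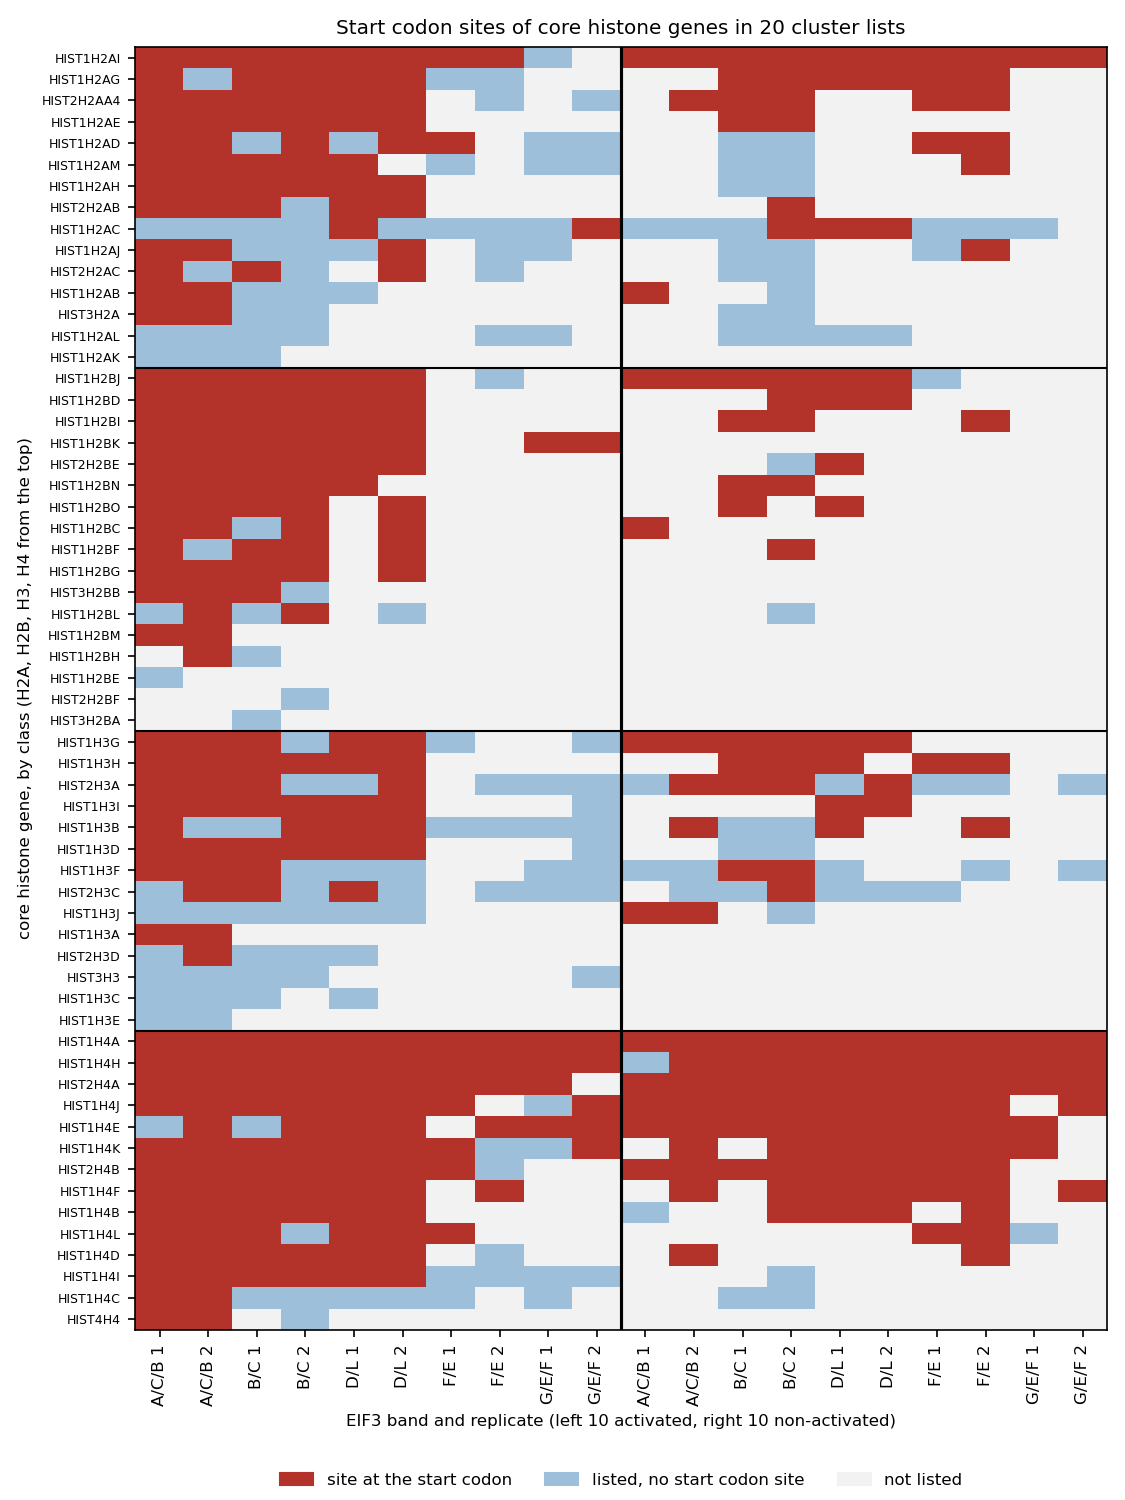
Start codon sites of the 60 listed core histone genes by library. Each row is a gene, grouped by class, and each column 1 of the 20 libraries, with the 10 activated on the left. The colour separates a gene with a start codon site, a gene listed without one and a gene not listed, and HIST1H4A has a site in all 20 columns and HIST1H2AL in none.

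Over all 64 coding members there were 60 distinct windows. A T is needed at a crosslinked position, and windows of the 52 members that ever had a start codon site held a median of 7 T outside the start codon, against 6 in the 12 that never did. A purine stood 3 bases before the start codon in 61 of 64 windows. The base after the start codon was G in 14 windows, all of them H3, and T in 32, the H2A and H4 windows. These are descriptions of the letters and carry no test.

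In activated EIF3A/C/B libraries, 57 of the 4916 and 4890 listed genes were core histones (1.16% and 1.17%), and they held 12223 and 12226 reads, 3.72% (Wilson 95% interval 3.66 to 3.79) and 3.66% (3.60 to 3.73) of all cluster reads, a mean of 3.69% ± 0.0422 (SD, n = 2). In the non-activated EIF3A/C/B libraries they held 321 and 383 reads, or 11.1% and 13.9% of a much shorter list. The intervals cover counting error only. The share was higher in both non-activated than in both activated libraries in the EIF3B/C band (7.68% and 6.79% against 3.41% and 3.17%), the EIF3D/L band (16.2% and 15.7% against 8.30% and 7.23%) and the EIF3F/E band (17.03% and 17.08% against 6.69% and 9.16%). In the EIF3G/E/F band the states overlapped (8.54% and 6.41% against 8.37% and 7.16%). The share moves with how many other genes pass the cluster minimum, and set against all reads in mRNA regions the order was not the same. Histone cluster reads in EIF3A/C/B were 2.18% and 2.15% of mRNA reads after activation against 1.11% and 1.32% without it. For EIF3B/C the values were 1.64% and 1.53% against 2.21% and 2.41%. Histone reads outside called clusters are missing from these values. In EIF3A/C/B, 16 and 19 members were listed without activation, against 57 in each activated library. With 2 libraries against 2, the smallest 2-sided p that an exact permutation test can give is 0.33, so none of these separations could pass a threshold of 0.05.

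In activated EIF3A/C/B, core histone sites were deep, while the number of sites per listed gene was near that of other genes. In the first activated EIF3A/C/B library a histone site held 75.9 reads on average against 27.3 for a site of another gene, and a listed histone gene had 2.82 sites against 2.38. Sites per gene were not scaled by transcript length. The depth was not general: non-activated EIF3D/L had 14.4 and 15.6 reads per histone site against 16.5 and 15.7. The second EIF3G/E/F library was also lower, at 13.1 against 15.1 (activated) and 14.6 against 16.7 (non-activated). All other libraries were higher for the histones. The T-to-C fraction is the part of a site's reads that carry the conversion, and a gene's value is the median over its sites. Its median over genes was 0.80 for the histones and 0.87 for other genes in both activated EIF3A/C/B libraries. In EIF3D/L it was 0.88 and 0.875 against 0.88 and 0.88 in activated cells, and 0.915 and 0.86 against 0.87 and 0.88 in non-activated cells. Among the 100 genes with the most reads, 6 and 8 were core histones in the activated EIF3A/C/B libraries and 12 and 13 in the non-activated ones.

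The most heavily crosslinked members of each class in activated EIF3A/C/B libraries were as follows. Among the H2A genes, HIST1H2AC held 996 and 992 reads, HIST2H2AA4 713 and 637, and HIST1H2AM had a mean of 347.5. Among the H2B genes, HIST1H2BJ held 190 and 221, HIST2H2BE 157 and 243 and HIST1H2BD 199 and 198 reads, so that the leading H2B genes lay below the leading genes of the other classes. Among the H3 genes, HIST2H3A held 860 and 938, its copy HIST2H3C 425 and 484 and HIST1H3B 366 and 342 reads. Among the H4 genes, HIST1H4H held 554 and 579, HIST1H4E 489 and 490 and HIST1H4A 456 and 462 reads. For most members the replicates were close: the median ratio of the higher to the lower replicate was 1.14 over 56 members listed in both, and 4 of the 56 (7.14%) differed more than 2-fold, against 7.02% of other genes.

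The H2A genes HIST1H2AG and HIST1H2AL parted most between replicates. HIST1H2AG held 373 reads in the first activated EIF3A/C/B library and 45 in the second, a ratio of 8.29, and HIST1H2AL held 28 and 198. The coding sequences of these H2A genes differ at 33 positions, and 13.3% of the 20-base windows of HIST1H2AG also occur in HIST1H2AL. Over the coding members, a median of 28.6% of 20-base windows also occurred in another member's transcript, with medians of 31.7% for H2A, 45.4% for H2B, 20.1% for H3 and 14.1% for H4. The transcripts of HIST2H4A and HIST2H4B share 100% of windows, as do those of HIST2H3A with HIST2H3C and of HIST2H2AA3 with HIST2H2AA4 from the side of the first gene of each pair, so values for single members of these pairs are uncertain. HIST2H2AA3 was listed in no library while HIST2H2AA4 was listed in 13. How reads of identical copies were divided between gene names was not tested.

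Sites on the core histone genes lay in the coding region and at its ends. Summed over the 10 activated libraries, the H2A genes had 279 sites, of which 59 lay at the start codon, 192 in the coding exon and 24 at the stop codon. The H3 genes were alike in this, with 40, 152 and 22 of 226 sites. The H2B genes had 63 of 153 sites at the start codon and 74 in the exon, and the H4 genes had 94 and 100 of 230, so that the start codon share was 41.2% for H2B and 40.9% for H4 against 21.1% for H2A and 17.7% for H3. Sites of 1 library share its depth and sites of copies share their sequence, so these summed shares carry no test.

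Few histone sites fell in the UTRs. In the activated EIF3A/C/B libraries 1 of 161 histone sites in each replicate was annotated to the 5′-UTR, whereas other genes had 4351 of 11565 and 4339 of 11663 sites there. These counts were not scaled by UTR length. Over all 20 libraries HIST2H3A had 12 and HIST2H3C 9 sites in the 5′-UTR, which were all of the 5′-UTR sites of the H3 class, and the H4 genes had 0. HIST2H2AA4, HIST2H2BE and HIST2H3C were the members with a UTR site in an activated EIF3A/C/B library. HIST2H2BE is also the member of that group with a long transcript, 2224 bases, and the authors' annotation placed 1 of its sites in an intron in each of these libraries.

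The start codon share of histone sites was higher than that of other genes in every library. It ran from 19.2% to 45.0% with a median of 26.4% in the 10 activated libraries and from 31.3% to 77.3% with a median of 67.8% in the 10 non-activated ones, while for all other genes it ran from 3.38% to 8.69% and from 0.806% to 6.13%. In activated EIF3A/C/B the histone value was 28.3% ± 0.439 (SD, n = 2). H4 showed the same order by state, with medians of 41.8% in activated and 80.2% in non-activated libraries, as did H2A with 17.5% and 50.0% and H3 with 14.3% and 50.0%. For H2B the median was 39.3% over 9 activated libraries and 100% over 8 non-activated ones, which hold few sites each. The other genes include sites in introns and sites with no assigned region. Among other genes with an mRNA site, the EIF3A/C/B share was 9.68% in replicate 1 after activation and 7.26% without it. Replicate 2 gave 9.37% and 8.33% in the same order. The median histone 5′-UTR was 36 bases, and other genes were not matched for 5′-UTR length. The part of short 5′-UTRs in the higher histone share was not tested.

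**Figure D2:**
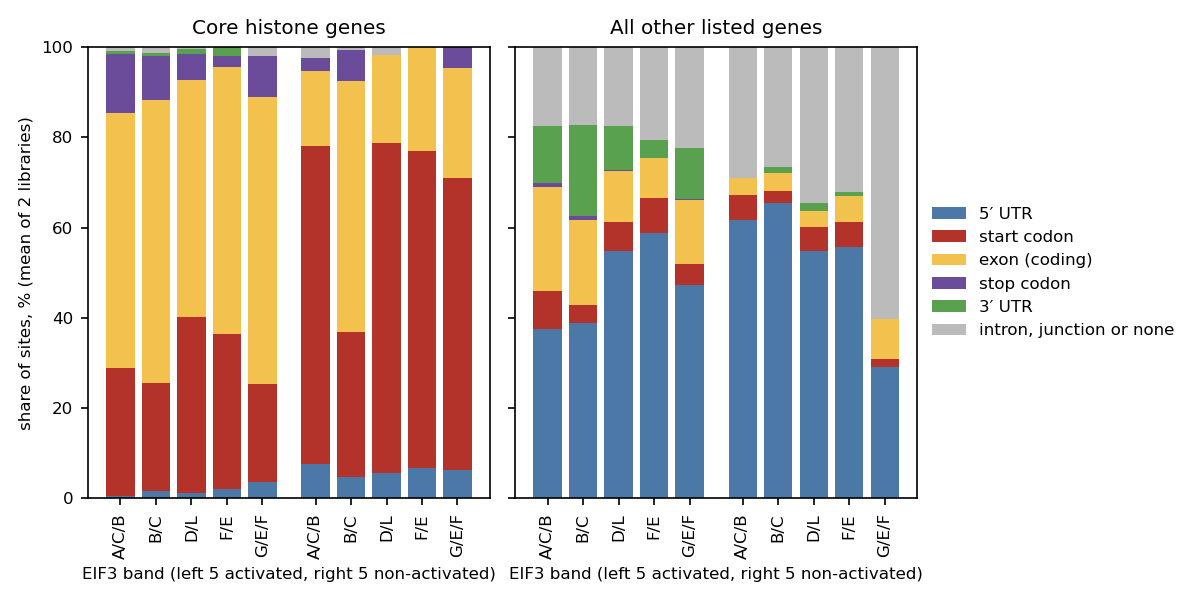
Regions of the sites of core histone genes (left panel) and of all other listed genes (right panel). Each bar is 1 band and state and gives the share of sites in percent, as the mean of the 2 replicate libraries, at the 5′-UTR, start codon, coding exon, stop codon, 3′-UTR and elsewhere, with activated bands on the left of each panel. The start codon segment of the histones is 28.3% in activated EIF3A/C/B, while the 5′-UTR segment is wide in other genes and narrow in the histones.

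Start codon sites were also counted over a fixed set of genes in each band, chosen as listed in the non-activated libraries. The 13 members listed in both non-activated EIF3A/C/B libraries had 9 of 14 and 11 of 15 sites at the start codon there, and 10 of 35 and 11 of 35 in the activated libraries. In EIF3D/L the 19 members listed in both non-activated libraries had 16 of 24 and 17 of 22 sites at the start codon there. In activated cells they had 17 of 48 and 16 of 49. Total depth of the states was closer in this band, but depth in mRNA regions was not. Its libraries held 98569 and 123226 mRNA reads in activated against 23727 and 22236 in non-activated cells. In EIF3B/C the corresponding 29 members had 17 of 53 and 19 of 68 in non-activated and 21 of 93 and 19 of 101 in activated cells. A listed member had 0 or 1 start codon site in all but 1 of its entries over the 20 libraries, so the count of start codon sites has little room to rise in such a set. Sites below the cluster minimum are not listed, and a deep site is still counted under at most 1 region. The part of either in these counts was not tested.

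Counted from the other side, core histones took a large part of the start codon sites of the non-activated libraries. In EIF3A/C/B they held 11 of 20 (55.0%, Wilson 95% interval 34.2 to 74.2) and 16 of 26 (61.5%, 42.5 to 77.6), although they were 9.70% and 12.1% of listed genes. In activated EIF3A/C/B they held 45 of 1050 (4.29%, 3.22 to 5.69) and 46 of 1031 (4.46%, 3.36 to 5.90). In EIF3D/L the counts were 20 of 27 and 17 of 23 in non-activated and 33 of 112 and 36 of 132 in activated cells. Genes were not matched for 5′-UTR length here either.

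Summed by class and scaled as reads per 1000000 uniquely aligned reads (RPM), the classes did not follow the bands in the same way. In activated cells the H4 class had 3481 and 3540 RPM in EIF3A/C/B and 1634 and 1728 in EIF3B/C. Its EIF3D/L values were 3444 and 3443, so that EIF3B/C was the lowest of these 3 bands. H3 RPM were 2649 and 2667, 3123 and 2590, and 1707 and 1806 in the same bands, with EIF3A/C/B inside the spread of EIF3B/C. H2A RPM were 3327 and 3036, 2677 and 2538, and 2890 and 2803. H2B was the lowest class in each of them, with 1190 and 1262, 628 and 607, and 694 and 909.

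**Figure D3:**
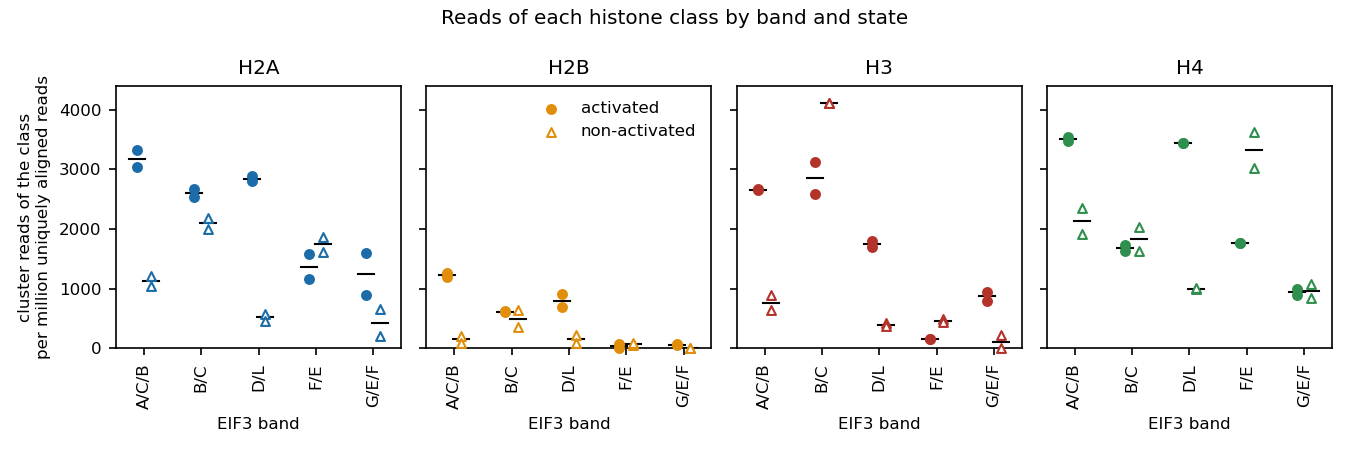
RPM (reads per 1000000 uniquely aligned reads) by histone class and band. Filled circles are activated and open triangles non-activated libraries, 2 of each per band, with a line at their mean. H3 in non-activated EIF3B/C stands at 4107 and 4111, above all other H3 points.

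Between states, H3 in EIF3B/C was 4107 and 4111 RPM in non-activated and 3123 and 2590 in activated cells, while in EIF3A/C/B it was 640 and 894 against 2649 and 2667. Genes not listed add nothing to these sums. Only 4 and 6 H3 genes were listed in non-activated EIF3A/C/B, against 14 in each activated library. The 4 H3 genes listed in all 4 libraries of EIF3A/C/B had a median ratio, activated over non-activated, of 1.77. In EIF3B/C that ratio was 0.626 over 7 H3 genes. H4 was lower in non-activated EIF3A/C/B (1921 and 2361), overlapping in EIF3B/C (1633 and 2039 against 1634 and 1728) and higher in non-activated than activated EIF3F/E (3020 and 3629 against 1765 and 1759). In EIF3A/C/B, 7 and 9 H4 genes were listed in the non-activated libraries, against 14 in each activated library. The 6 listed in all 4 had a median ratio of 1.23. In EIF3D/L all classes were lower in the non-activated libraries, with H2A at 581 and 454, H2B at 229 and 84.1, H3 at 421 and 370 and H4 at 991 and 1014. The lower share of mRNA among aligned reads in the non-activated EIF3D/L libraries moves with this difference.

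Reads per gene were then compared between states with edgeR's quasi-likelihood test, adjusted by Benjamini-Hochberg over all genes tested, with uniquely aligned reads as library sizes. In EIF3A/C/B, 35 of 54 tested members were called higher and 1 lower in activated cells, where 77.1% and 0.497% of all 3221 tested genes were called, so the histone share was below the background for higher calls. Of the 35, 29 were not listed in every library, and no fold is given for them. Of the 13 members listed in all 4 libraries, 6 were called higher, 1 lower and 6 neither, and the median ratio of means was 1.47, against 1.36 for the 99 other such genes. A fit on only the genes listed in all 4 libraries, added after seeing the data, made the same 6 and 1 calls in number, where 42.9% and 11.6% of such genes were called. The RPM of the 13 summed to 4684 and 4667 after activation against 3534 and 3757 without it. With reads in mRNA regions as library sizes, the calls became 26 higher and 4 lower, against 2235 and 34 of all 3221 genes tested. The median of the same 13 moved by -0.51 on the log2 scale, with 7 of them above 0. All calls, those of other genes included, were lost when either activated library was left out.

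The 3 largest called increases among the 13 were in H3 and H4 genes. HIST2H3A had 749 and 806 RPM in activated against 308 and 406 in non-activated cells, a log2 fold change of 1.12 ± 0.16 (SE; edgeR adjusted p = 0.00500). HIST2H4A had 274 and 304 against 142 and 131 (1.08 ± 0.15, adjusted p = 0.00498), and HIST1H3F had 253 and 214 against 130 and 95.4 (1.04 ± 0.21, adjusted p = 0.0120). The 1 member called lower was HIST1H2AI, with 238 and 204 against 332 and 382 RPM (-0.69 ± 0.15, adjusted p = 0.0151). For each of these genes the activated and non-activated values did not overlap. The non-activated values rest on 8 to 34 reads per library.

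In EIF3B/C, 7 of 48 tested members were called higher and 4 lower in activated cells, against 40.9% and 2.47% of all 2188 genes tested. Of the 7, 4 were not listed in every library, and no fold is given for them. The 29 members listed in all 4 libraries had a median ratio of 0.879, and 15 of them lay below 1, against a median of 1.14 and 43.2% below 1 in 537 other genes. HIST2H2AA4 rose, with 305 and 394 RPM against 136 and 137 (log2 fold change 1.35 ± 0.22, edgeR adjusted p = 0.0234), as did HIST1H2AI, with 194 and 183 against 88.7 and 60.4 (1.35 ± 0.30, adjusted p = 0.0325), and HIST1H4A, with 180 and 182 against 88.7 and 93.9 (0.98 ± 0.22, adjusted p = 0.0338). HIST1H4E fell, with 234 and 300 against 611 and 604 (-1.18 ± 0.18, adjusted p = 0.0234), as did HIST2H4A, with 121 and 140 against 235 and 325 (-1.10 ± 0.26, adjusted p = 0.0366), and HIST1H3F, with 709 and 685 against 1367 and 1341 (-0.96 ± 0.08, adjusted p = 0.0231). Thus members of a single class, H4, were called in both directions in 1 band. Fitted on only the genes listed in all 4 libraries, 5 members were called higher and 7 lower, against 24.0% and 12.0% of such genes. With mRNA reads as library sizes the split became 3 higher and 9 lower, against 790 and 94 of all 2188 genes. With TMM it was 5 higher and 6 lower, against 830 and 69. DESeq2 called 2 higher and 0 lower (5 and 0 at an unadjusted p under 0.05), where it called 340 and 15 of all 2188 genes. Under DESeq2 the lower calls of HIST1H4E (-1.35, adjusted p = 0.260), HIST2H4A (-1.26, 0.334) and HIST1H3F (-1.13, 0.351) were lost with their direction kept. All calls, those of other genes included, were lost when either activated library was left out.

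**Figure D4:**
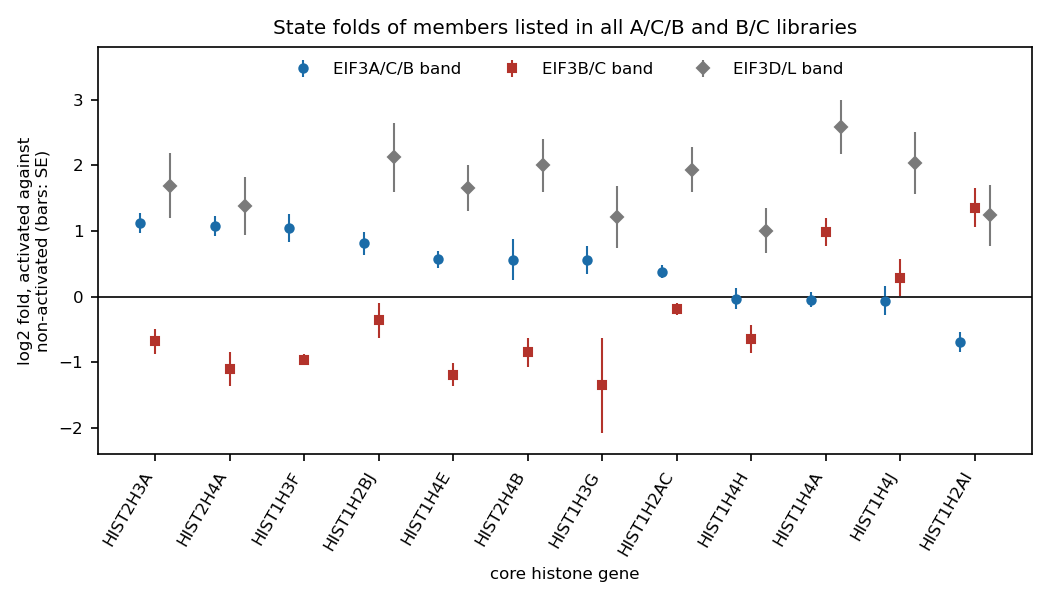
Log2 fold change, activated over non-activated, of the 12 members listed in all EIF3A/C/B and EIF3B/C libraries, with uniquely aligned reads as library sizes. Points are edgeR estimates with SE bars, and EIF3D/L is added where a gene was listed in all 4 libraries of that band. HIST1H3F stands at 1.04 for EIF3A/C/B but at -0.96 for EIF3B/C, and the EIF3D/L points shown all lie above 0.

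In EIF3D/L, 25 of 34 tested members were called higher and 0 lower by edgeR (30 and 0 at an unadjusted p under 0.05), against 74.5% and 0.232% of all 431 tested genes. Of the 25, 10 were not listed in every library, and no fold is given for them. DESeq2 called 5 members higher and 1 lower, against 205 and 8 of all 431 genes. Fitted on only the genes listed in all 4 libraries, 17 of 18 were called higher and 0 lower, against 85.3% and 1.33% of such genes. All 18 members listed in the 4 libraries were higher in both activated than in both non-activated libraries, with a median ratio of 3.20 (1.41 for HIST1H4K to 11.1 for HIST1H2AG), against 3.91 for 57 other genes. With mRNA reads as library sizes, however, the median of the 18 moved by -1.96 on the log2 scale and 6 of them lay above 0. Of the 34 tested members 6 were then called higher and 1 lower, against 203 and 12 of all 431 genes. HIST1H2AG had 544 and 432 RPM in activated against 37.3 and 50.4 in non-activated cells (log2 fold change 3.46 ± 0.42, edgeR adjusted p = 0.00114). HIST1H4A had 369 and 416 against 79.9 and 50.4 (2.58 ± 0.41, adjusted p = 0.00145), and HIST1H2BJ had 225 and 136 against 42.6 and 39.2 (2.12 ± 0.52, adjusted p = 0.00927). With mRNA reads as library sizes the log2 fold changes became 1.5 for HIST1H2AG (edgeR adjusted p = 0.0347), 0.62 for HIST1H4A (0.276) and 0.16 for HIST1H2BJ (0.802), so that the latter pair lost the call. They also lost it with TMM, at 0.80 and 0.38. All calls, those of other genes included, were lost when either activated library was left out.

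Within activated cells the bands could be compared at similar mRNA content (48.9% to 49.3% of aligned reads). In EIF3B/C against EIF3A/C/B, 2 of 54 tested members were called higher and 13 lower, against 2.53% and 7.46% of all 3405 genes tested, and of 49 members listed in all 4 libraries 42 lay below a ratio of 1, with a median of 0.531 against 0.812 for 2332 other genes. Fitted on only those genes, 3 members were called higher and 29 lower, against 8.4% and 21.6%. The lower calls among all tested members comprised 5 H4, 4 H2B, 2 H2A and 2 H3 genes. HIST1H4H had 167 and 204 RPM in EIF3B/C and 483 and 498 in EIF3A/C/B (log2 fold change -1.40 ± 0.13, edgeR adjusted p = 0.0335), HIST1H2BO had 36.1 and 28.7 against 87.1 and 90.2 (-1.45 ± 0.20, adjusted p = 0.0446), and HIST3H2BB had 7.65 and 7.72 against 31.4 and 35.2 (-2.10 ± 0.32, adjusted p = 0.0475), the last from 7 reads in each EIF3B/C library. TMM gave 3 higher and 5 lower, against 172 and 108 of all 3405 genes tested. These bands of the same replicate come from a single sample, and with the replicate number as a block no member or other gene was called. No call, of a member or of another gene, remained when either activated EIF3A/C/B library was left out.

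The 2 members called higher in EIF3B/C were both H3 genes. HIST1H3F had 709 and 685 RPM against 253 and 214 (log2 fold change 1.58 ± 0.11, edgeR adjusted p = 0.0324), and HIST1H3B had 778 and 774 against 319 and 294 (1.34 ± 0.07, adjusted p = 0.0290). Unique read sequences gave other values: HIST1H3B had 712 and 702 reads but 141 and 141 unique sequences in EIF3B/C, and 366 and 342 reads with 192 and 184 unique sequences in EIF3A/C/B. Fitted on unique sequences, the change of HIST1H3B was -0.072 with an adjusted p of 0.646, so the direction was not the same on reads and on unique sequences. HIST1H3F had 148 and 131 unique sequences in EIF3B/C and 186 and 152 in EIF3A/C/B, and fitted on them its change was 0.066 with an adjusted p of 0.768, so its call was lost too.

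The same activated EIF3A/C/B libraries served as reference for EIF3D/L. In EIF3D/L against EIF3A/C/B, 1 of 54 tested members was called higher and 8 lower, against 1.18% and 55.5% of all 3229 genes tested. Of the 8, 4 were not listed in every library, and no fold is given for them. The share of members called lower was far below that of all genes. Most other genes of EIF3A/C/B had no EIF3D/L cluster at its lower depth, and among the genes listed in all 4 libraries the median ratio was 0.887 for 36 members, 22 of them below 1, and 0.717 for 573 other genes, 69.1% of them below 1. Fitted on only those genes, 2 members were called higher and 6 lower, against 8.37% and 33.8%. HIST1H2AC was the member called higher among all tested, with 1098 and 1113 RPM against 868 and 852 (log2 fold change 0.36 ± 0.07, edgeR adjusted p = 0.0206). HIST2H3A was lower, with 344 and 332 against 749 and 806 (-1.20 ± 0.10, adjusted p = 0.0130), as were HIST1H2AE, with 74.9 and 84.1 against 145 and 149 (-0.88 ± 0.21, adjusted p = 0.0374), and HIST2H2AA4, with 344 and 324 against 621 and 547 (-0.81 ± 0.13, adjusted p = 0.0166). With TMM the split became 5 higher and 5 lower, against 85 and 1611 of all 3229 genes tested. The median of the 36 members moved by 0.42 to 0.24 on the log2 scale. No call, of a member or of another gene, remained when either activated EIF3A/C/B library was left out.

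The change between states was not the same in every band for single members. An interaction term in edgeR, added after seeing the values, passed for 6 of 12 members listed in all 8 libraries of EIF3B/C and EIF3A/C/B, against 17 of 85 other genes listed in all 8 (20.0%). It passed for 2 of 11 members with EIF3D/L in place of EIF3B/C, against 4 of 33 other genes (12.1%), and for 7 of 13 between EIF3D/L and EIF3B/C, against 27 of 53 (50.9%). Over all genes tested, most of them at 0 in some library, the shares were 10.5%, 1.36% and 9.13% in the same order. HIST1H3F shows it in its values, being higher after activation in EIF3A/C/B and lower in EIF3B/C.

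Single members kept a profile of their own across the bands. HIST1H4A, an H4 gene, held 456 and 462 reads in activated EIF3A/C/B against 37 and 32 in the non-activated libraries of that band, 165 and 165 against 17 and 28 for EIF3B/C, 74 and 104 against 15 and 9 for EIF3D/L, 50 and 44 against 50 and 46 for EIF3F/E, and 42 and 35 against 20 and 18 for EIF3G/E/F. Scaled by library, its RPM overlapped between states in EIF3A/C/B (397 and 397 against 439 and 382), were lower in both activated libraries in EIF3F/E (342 and 318 against 452 and 393) and were higher in both in the other 3 bands. Outside activated EIF3A/C/B and 1 EIF3B/C library, its start codon site was the only site listed for it. HIST1H2AC, an H2A gene, held 891 and 886 reads in activated EIF3B/C, against 996 and 992 in EIF3A/C/B, and had 1 exon site or none in activated EIF3A/C/B but 2 to 3 exon sites in activated EIF3B/C and EIF3D/L. HIST1H3H, an H3 gene, held 341 and 328 reads in activated EIF3A/C/B with a start codon site in both libraries, 35 and 45 in EIF3D/L, and was not listed in non-activated EIF3A/C/B or in any EIF3G/E/F library. It had a start codon site in all 11 libraries that listed it.

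The abundance tables gave the level of the histone mRNAs in the same states as the authors' mean TPM, with no error and at unknown depth, and in such bulk samples fewer cells with an mRNA and less mRNA per cell cannot be told apart. The tables held 68 of the 69 members, and 57 had a mean of at least 1 TPM over the states. The summed level was 1384 TPM in activated and 11239 TPM in non-activated cells. Because the median of all 8504 genes was itself lower in the activated table by 2.22 on the log2 scale (log2 of TPM plus 0.1), differences are given relative to it: the members' median was -0.93, 56 of the 57 lay below the median gene (98.2% against 50.0% of all genes), and 21 lay more than 2-fold below it (36.8% against 3.77%). None was more than 2-fold above it, against 5.76% of all genes.

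**Figure D5:**
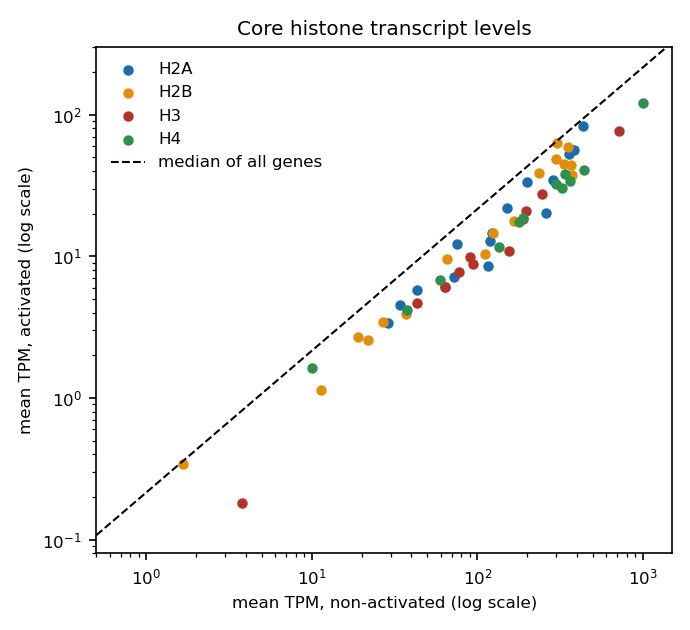
Mean TPM of the core histone genes in activated against non-activated cells, on log axes. Points are genes coloured by class, from the authors' mean of each state, and the line marks the difference of the median gene; 56 of 57 members with a mean TPM of at least 1 fall on the non-activated side of it.

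By class, the median relative difference was -0.67 for H2A, -0.72 for H2B, -1.12 for H3 and -1.05 for H4, and 9 of 12 H3 and 6 of 12 H4 genes lay more than 2-fold below the median gene, against 3 of 16 H2A and 3 of 17 H2B genes. The lowest was HIST2H3D, an H3 gene (10.9 TPM in activated, 155 in non-activated, relative difference -1.60), and the 1 member above the median gene was HIST2H2BC (0.22), an annotated pseudogene below 1 TPM in activated cells. The highest levels in activated cells were those of HIST1H4J (121 TPM), HIST2H2AA3 (83.4), HIST1H3B (76.1), HIST1H2BJ (63.0) and HIST1H2BC (58.6). In non-activated cells HIST1H4J (1000 TPM), HIST1H3B (722), HIST2H4A (443), HIST2H2AA3 (436) and HIST1H2AI (384) stood highest. Replicated values of abundance were not used here, so no test was made.

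Crosslinked reads did not follow abundance closely. Over 55 members in the activated EIF3A/C/B libraries Spearman's rho between mean reads and TPM was 0.25 and Pearson's r on the log2 scale 0.21, as a description of genes that share a library and in part their sequence. By class rho was 0.73 for 16 H2B genes, 0.15 for 16 H2A genes, 0.01 for 12 H4 genes and -0.20 for 11 H3 genes. The median member had 7.04 reads per TPM, against 13.4 for 2363 other listed genes. The 55 members include genes with 0 reads, HIST2H2AA3 among them, whereas other genes were taken only where listed. Reads were not scaled by transcript length. HIST1H2AC had 171 reads per TPM at 5.83 TPM and HIST2H3A 148 at 6.08 TPM, whereas HIST1H4J had 3.37 at 121 TPM. The tables divide identical copies in another way than the cluster lists: HIST2H4A stood at 40.7 TPM and HIST2H4B at 0.332 TPM in activated cells, while they held 315 and 354 against 362 and 226 reads in activated EIF3A/C/B, and HIST2H3A and HIST2H3C both stood at 6.08 TPM.

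Genes that act on histone mRNA or on histones were read beside the members from lists chosen by function. Of 16 genes for histone mRNA transcription and 3′-end processing, 7 were tested between states in EIF3A/C/B and 7 were called higher in activated cells by edgeR. Of 14 histone chaperones 7 were tested in EIF3A/C/B and 4 were called higher, and of 17 S phase genes 8 were tested there and 6 were called higher. These shares stand beside 77.1% of all genes tested in EIF3A/C/B, and DESeq2 called 0 genes of these lists there. Apart from PCNA, none of the genes on these lists was listed in either non-activated EIF3A/C/B library. They were tested through their reads in the deeper activated libraries, so higher was the only call open to them. In EIF3B/C, where 40.9% of all genes were called higher, edgeR called 4 of 6 processing genes higher, 0 of 4 chaperones (0 higher and 1 lower at an unadjusted p under 0.05) and 1 of 4 S phase genes, with 2 of the 4 lower. DESeq2 called 1 processing gene higher there and 0 of the other lists. A gene with reads in the activated EIF3B/C libraries alone could only be called higher, and such genes were not counted apart. SLBP, which binds the histone stem-loop, held 26 and 25 reads in activated EIF3A/C/B and was listed in 4 libraries in all, and PCNA, the DNA polymerase clamp, held 134 and 117. In abundance the processing genes lay at the median gene (0.06), the chaperones slightly below (-0.14) and the S phase genes lower (-0.54, 14 of 16 below the median gene), all nearer to the median gene than the histones at -0.93.

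The 9 members never listed in any library were HIST1H2AA, HIST2H2AA3, HIST1H2BA, HIST1H2BB, HIST2H2BA, HIST2H2BB, HIST2H2BC, HIST2H2BD and HIST1H4G. HIST2H2AA3, the copy of HIST2H2AA4, stood at 83.4 TPM in activated cells, and the others were low in the tables. Of the 60 listed members, 45 were listed in both states, 15 in activated libraries only and 0 in non-activated libraries only. At least 15 of the 20 libraries listed 13 of the members.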

How the data were processed

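PAR-CLIP libraries of 5 eIF3 bands in activated and non-activated Jurkat cells (2 replicates each) and 2 tables of transcript abundance were analysed. Samples were assigned by their labels, with the labels of replicate 2 taken as corrected by the depositors. The read and site counts per gene are whole counts deposited by the authors, who collapsed reads by random barcode, aligned them with Bowtie to hg38 and called and annotated clusters per library with PARalyzer in PARpipe, so replicates were not pooled. The T-to-C fraction values come from the same pipeline of the authors. Totals per library and RNA class, a further kind of value, were deposited as statistics. TPM values were deposited by the authors as the mean of replicates, made with Cutadapt 2.6 and kallisto 0.46.0 per the processing notes. Their depth is unknown.

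Reads per gene were tested in edgeR 4.0.16 (quasi-likelihood test in R 4.3.3, with Benjamini-Hochberg adjustment over every gene that reached 20 reads in 1 or more of the 4 libraries compared, threshold 0.05), with uniquely aligned reads as library sizes and genes not listed at 0. The SE is the log2 fold change divided by the square root of F. A gene with 0 reads in a library has no interpretable fold, and none is printed. TMM, mRNA reads as sizes, DESeq2 1.42.0, no filter, unique sequences, the replicate number as a block, leaving out single libraries and, added after seeing the data, only genes listed in all 4 libraries were alternatives. The edgeR fit was tested on simulated data. TPM was compared on a log2 scale with a pseudocount of 0.1 where the mean over states reached 1. Shares, Wilson 95% intervals and figures used Python 3.11.15 (matplotlib 3.10.9, numpy 2.4.6, statsmodels 0.14.6, scipy 1.17.1, pandas 2.3.3). Sequences were read from hg38 with GENCODE release 44, in which 67 member names were matched by transcript ID and 2 through RefSeq.

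Genes were named by rule: the 3 members of each class with the most reads in activated EIF3A/C/B, up to 3 called members per direction and comparison listed in all 4 libraries, identical copies, HIST1H2AI and HIST1H3H, the 5 members with the highest TPM per state, those listed in all 20 libraries and those with UTR sites in activated EIF3A/C/B. Others (HIST1H2AG, HIST1H2AL, HIST1H2AJ, HIST1H4J, HIST1H4K, HIST2H3D, HIST2H2BC, HIST1H2BC and the never listed) were added after their values were seen, in so far as no rule names them. Members and gene lists were chosen with earlier results of these data known.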

Additional observations from a re-analysis of the deposited data

Results flagged for a closer look

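The change between activated and non-activated cells differed between bands for several core histone genes, by an interaction term in edgeR (quasi-likelihood test, Benjamini-Hochberg adjusted over all genes tested) that was added after the values had been seen. Only members listed in all 8 libraries of a pair of bands were read, and each value is the difference of 2 log2 fold changes. The term treated all libraries as independent, although EIF3A/C/B and EIF3B/C libraries of the same state and replicate come from a single sample.

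Between EIF3B/C and EIF3A/C/B, where 20.0% of other genes listed in all 8 libraries passed, the difference was 2.05 for HIST1H2AI and 1.03 for HIST1H4A, which changed more toward activated cells in EIF3B/C. It was -2.00 for HIST1H3F, -1.75 for HIST1H4E, -1.80 for HIST2H3A and -2.18 for HIST2H4A, which changed more toward activated cells in EIF3A/C/B. Between EIF3D/L and EIF3A/C/B, where 12.1% of such genes passed, it was 1.55 for HIST1H2AC and 2.63 for HIST1H4A. Between EIF3D/L and EIF3B/C, where 50.9% passed, it was 2.13 for HIST1H2AC, 3.16 for HIST1H2AG, 2.49 for HIST1H2BJ, 2.85 for HIST1H4E, 1.65 for HIST1H4H, 2.49 for HIST2H4A and 2.85 for HIST2H4B. The EIF3D/L values move with the lower share of mRNA in the non-activated libraries of that band, and the part of that share in them was not tested. HIST2H4A and HIST2H4B are identical copies and count as 1 piece of evidence.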

How the results depend on the processing

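The named members kept the direction of their change in 241 of 242 alternative values (22 pairs of gene and comparison, 15 genes), and 130 of these also passed the threshold. The exception was HIST1H3B between EIF3B/C and EIF3A/C/B in activated cells, at -0.072 on unique read sequences. These members were chosen for the largest called changes in the same reads, so a kept direction is in part fixed by that choice. Members not chosen this way moved more. All 18 members listed in every EIF3D/L library were higher after activation by uniquely aligned reads. Above 0 were 8 of them with TMM, 6 with mRNA reads as library sizes and 7 with DESeq2. The counts of called members moved much more, and the cause was not tested.

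In EIF3A/C/B between states, the members called higher became 4 with DESeq2 and 6 among genes listed in all 4 libraries (added after seeing the data), and the members called lower became 4 with TMM, 4 with mRNA reads as library sizes, 3 with unique sequences and 0 with DESeq2 (0 also at an unadjusted p under 0.05). Over all genes the higher calls were 170 of 3221 and 48 of 112. The lower calls over all genes, in the same order, were 33 of 3221, 34 of 3221, 28 of 2746 and 2 of 3221. In EIF3B/C between states, the higher count became 3 with mRNA reads and 2 with DESeq2, and the lower count 9 with mRNA reads, 9 with unique sequences, 7 among genes listed in all 4 libraries and 0 with DESeq2. Over all genes the higher calls were 790 and 340 of 2188. The lower calls over all genes, in the same order, were 94 of 2188, 64 of 1780, 68 of 566 and 15 of 2188. In EIF3D/L between states, the higher count became 7 with TMM, 6 with mRNA reads and 5 with DESeq2, and 1 was called lower with TMM, mRNA reads, DESeq2 and no filter each. Those higher counts are of 34 members, and over all 431 genes the higher calls were 199, 203 and 205. The lower calls over all genes were 11, 12 and 8 of 431, and 6 of 1266 with no filter. For EIF3B/C against EIF3A/C/B in activated cells, the higher count became 0 with no filter (3 at an unadjusted p under 0.05) and 0 with unique sequences, and the lower count 5 with TMM, 0 with no filter (32 unadjusted) and 29 among genes listed in all 4 libraries. Over all genes the higher calls were 0 of 5975 and 30 of 2874. The lower calls over all genes, in the same order, were 108 of 3405, 0 of 5975 and 515 of 2381. For EIF3D/L against EIF3A/C/B, the higher count became 5 with TMM, 4 with unique sequences, 2 among genes listed in all 4 libraries and 0 with DESeq2, and the lower count 5 with TMM and 0 with DESeq2 (3 unadjusted). Over all genes the higher calls were 85 of 3229, 29 of 2746, 51 of 609 and 5 of 3229. The lower calls over all genes were 1611 of 3229 with TMM and 93 of 3229 with DESeq2.

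Leaving out 1 library at a time gave 0 to 34 members called higher and 0 to 1 lower in EIF3A/C/B between states, 0 to 20 higher and 0 to 11 lower in EIF3B/C, and 0 to 28 higher and 0 lower in EIF3D/L. The ranges were 0 to 3 higher and 0 to 28 lower for EIF3B/C against EIF3A/C/B, and 0 to 5 higher and 0 to 20 lower for EIF3D/L against EIF3A/C/B. The lone library of such a fit is assumed to vary like the other group.

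With the replicate number as a block, the higher and lower counts were 0 and 0 in all 5 comparisons, for members and for all genes tested alike. At an unadjusted p under 0.05 the block gave 3 and 0, 3 and 4, 10 and 0, 3 and 28, and 0 and 2 members in the order above. Deviations of libraries with the same number correlated between -0.057 and 0.0074 over genes. By the labels, however, the EIF3A/C/B and EIF3B/C libraries of the same state and replicate belong to a single sample. Fits without the block treated these bands as independent libraries, and a low correlation does not remove that link.

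Of the shares in activated EIF3A/C/B, the start codon share of 28.3% became 34.4% as a mean over genes and 28.0% to 28.6% with 1 replicate left out. The share of cluster reads of 3.69% became 3.30% on unique sequences, 1.06% of all uniquely aligned reads, and 3.66% to 3.72% with 1 replicate left out. The relative TPM difference of -0.93 became -1.50 with a pseudocount of 1, -2.41 without the filter and -3.15 when not centred on the median gene. Depth limits the non-activated values most, since histone genes listed there rest on few reads each.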

Other observations

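The names left out as pseudogenes also carried clusters in activated cells. HIST2H3DP1 held 34 and 28 reads, HIST1H2BPS3 24 and 25 and HIST1H2APS1 18 and 21 in the 2 activated EIF3A/C/B libraries. In activated EIF3B/C, HIST1H2BPS3 held 7 and 9 reads and HIST1H2APS1 11 in 1 library. None of the left-out names was listed in a non-activated library. These names were chosen after their values were seen, and whether their reads come from near copies was not tested.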
